A study of Sus scrofa with 2 samples.

Results

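Nuclear respiratory chain genes were examined in cochlear wall that holds the stria vascularis (SV), from pigs that carry 1 or 2 copies of the r allele of Mitf. The members were all features whose symbol began with NDUF, SDHA to SDHD, UQCR, COX4 to COX8 or ATP5, together with CYC1 and CYCS, with an Ensembl pig name used where the deposited table gave none. This rule used no expression value. It found 81 of the 27622 features of the table, which carry 79 symbols. Of these features, 69 were named by the deposited table and 12 by the Ensembl name table.

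The study compared the transcriptomes of Mitf R/r and Mitf r/r pigs, with 1 RNA-seq library for each genotype. Both genotypes carry the r allele, which arose spontaneously in Rongchang pigs, and r/r animals are albino and deaf. No R/R library was analysed here. The sample labels give the age of both libraries as postnatal day 1, whereas the study's own text gives an embryonic stage. Whether a library came from 1 animal is not given in the sources used here. The tissue is a dissected strip of cochlear wall and holds several cell types, so that fewer cells of a type and less RNA per cell cannot be told apart.

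The respiratory chain sits in the inner mitochondrial membrane. Complex I takes electrons from NADH and complex II takes them from succinate, complex III passes them to cytochrome c, complex IV hands them to oxygen, and complex V uses the proton gradient built on the way to make ATP. Most subunits are encoded in the nucleus and a few of the central ones in mitochondrial DNA, so that both sets of genes have to be expressed to build complexes I, III, IV and V. The SV spends much ATP on pumping potassium into the endolymph, and its marginal cells, which do most of this work, are rich in mitochondria.

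Expression was deposited as RPKM, the reads of a gene scaled to the length of its exon model and to the mapped reads of its library. RPKM therefore adjusts for gene length and for library size. It does not adjust for a different make-up of the RNA in the libraries, so results with other scalings are given below. The difference between the libraries was the log2 ratio of RPKM, r/r over R/r, for features above 0 in both libraries and at 1 RPKM or more in at least 1. This held for 16331 features, whose median log2 ratio was -0.02. Whole reads could be worked out from the RPKM values and gave totals of 15829244 for R/r and 14258672 for r/r. The 95% intervals given with log2 ratios are exact Clopper-Pearson intervals on these reads. They cover counting error only and do not cover differences between animals or preparations. With 1 library per genotype no test was possible, and every difference below is one between these libraries.

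The melanocyte and intermediate cell markers were read only to match the columns to the labels. In r/r all 6 markers that passed the minimum were more than 2-fold lower, also at the near end of every interval. Of all 16331 features tested, 360 were at least 2-fold lower. The study already lists lower r/r values of these 6 from the same libraries, so they are no independent result. The summed level of the 8 markers was 270 RPKM in R/r and 8.81 RPKM in r/r. MITF itself is split over 3 features, whose levels were 11.9, 51.7 and 10.1 RPKM in R/r and 8.36, 37.8 and 7.27 RPKM in r/r. Marginal cell markers, which include the channel subunit KCNE1 and the pump subunit ATP1B2, were present in both libraries, with a summed level of 1922 RPKM in R/r and 1442 RPKM in r/r over the 6 markers found.

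Nuclear respiratory chain genes were abundant in the dissected tissue and had nearly the same level in both libraries. Of the 79 symbols, 77 passed the minimum. None of the 77 was 2-fold apart, against 3.99% of all features tested. Features 2-fold apart were rarer at higher level or depth. They were 87 of 8605 at 10 RPKM or more and 26 of 5255 at 1000 reads or more, so an absence among the members is not a trait particular to them. The median log2 ratio of the members was 0.02, the middle 50% lay between -0.04 and 0.09, and the range ran from -0.70 to 0.56. With values rescaled to TPM the median was -0.01, so its sign depended on the scaling. The r/r value was within 10 percent of the R/r value for 69 members.

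The symbols that did not pass were COX8C, listed at 0 RPKM in both libraries, and COX8H, at 0.188 RPKM in R/r and 0.417 RPKM in r/r from 1 and 2 reads. A listed 0 is not evidence of absence in this table, since genes that nearly every cell uses, such as TPI1 of glycolysis and the ribosomal proteins RPS19 and RPL28, were also listed at 0 RPKM in both libraries. A pair of symbols was carried by a second feature, and the feature with the higher mean level was used. The second NDUFS4 feature had 81.0 RPKM in R/r and 86.8 RPKM in r/r. The second ATP5J feature had 1.51 RPKM in R/r and 1.24 RPKM in r/r.

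Levels spanned a wide range among the members and were kept between the libraries. Of the 77 members, 68 were at 10 RPKM or more in both libraries and 34 at 100 RPKM or more in both. The lowest was NDUFAF6 at 1.04 RPKM in R/r and NDUFA4L2 at 0.867 RPKM in r/r. The highest was ATP5B at 602 RPKM in R/r and NDUFA4 at 634 RPKM in r/r. Over the 77 genes the Pearson correlation between the libraries' log2 RPKM was 0.997, a description across genes, which are not independent replicates. Over levels that span 577-fold in R/r, such a value leaves room for small differences. It was not computed for other genes.

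**Figure D1:**
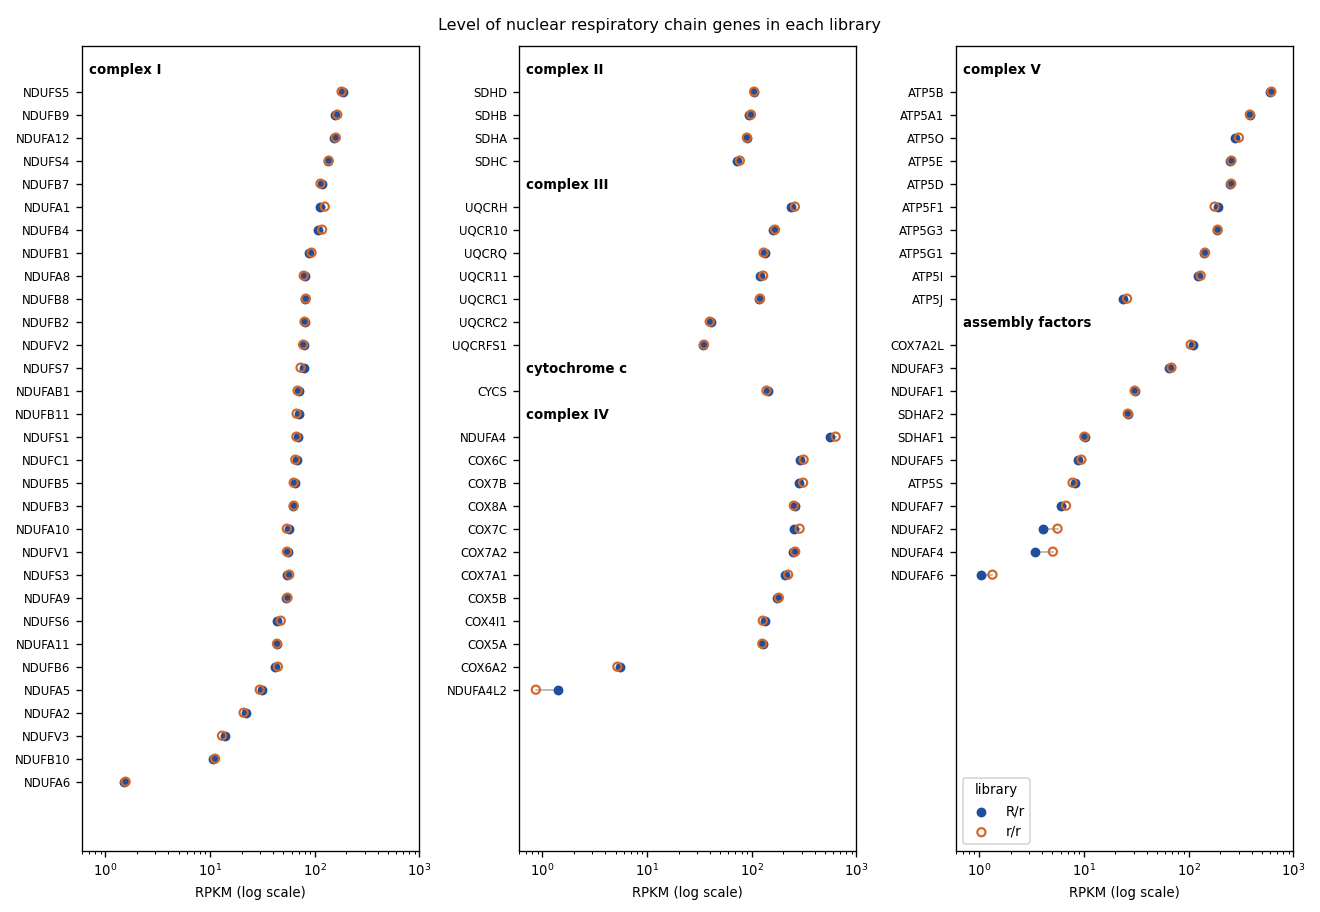
Level of 76 members in the R/r library (filled circles) and the r/r library (open circles), in RPKM on a log axis, grouped by complex and ordered by level in R/r. The circles of most members overlap; the widest gaps are those of NDUFA4L2, NDUFAF2, NDUFAF4 and NDUFAF6, all under 6 RPKM.

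A narrower threshold gave few members as well. With the larger value at least 25 percent above the smaller, 4 members (5.19%) were apart, namely NDUFA4L2, NDUFAF2, NDUFAF4 and NDUFAF6, against 23.8% of all features tested. These 4 rested on 28 to 121 reads in both libraries together. Among the 68 members at 10 RPKM or more in at least 1 library, 0 were apart by this measure, where 11.3% of all features at that level were. Among the 58 members with at least 1000 reads, 0 were, where 7.29% of all features of that depth were.

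The members were also read more deeply than the typical feature, with a median of 2083 reads in both libraries together against 448 over all features with reads found. The interquartile range of their log2 ratios was 0.12, and that of all features tested was 0.30. Limited to at least 1000 reads, the interquartile ranges were 0.11 for members and 0.19 for all features. For 64 of 77 members the whole interval lay inside 25 percent in either direction, and for 73 it lay inside 2-fold. The remaining 4 were NDUFA4L2, NDUFAF2, NDUFAF4 and NDUFAF6, for which a 2-fold difference lay inside the interval.

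**Figure D2:**
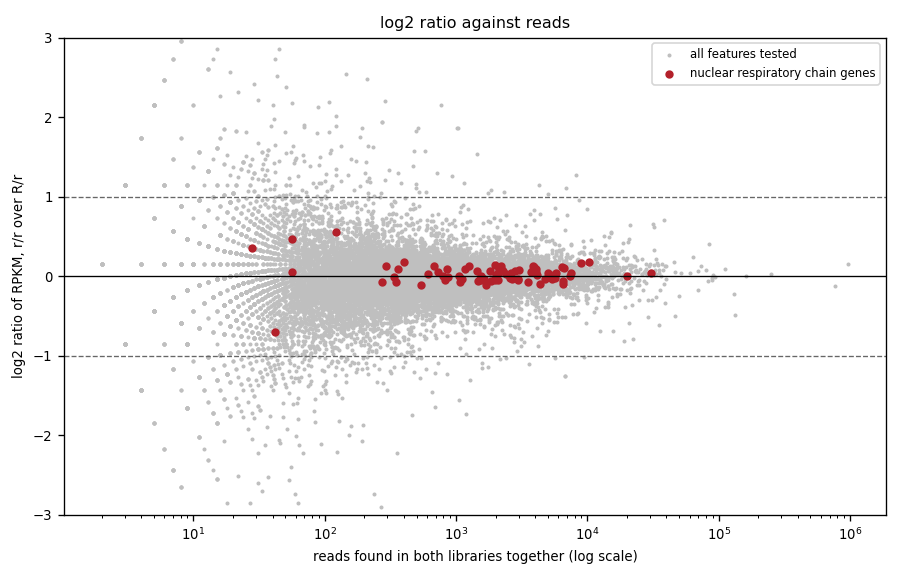
Log2 ratio of RPKM, r/r over R/r, against the reads found in both libraries together (log axis), for all features with reads (grey) and the 77 members (red), with dashed lines at 2-fold. The vertical axis stops at 3 in either direction and leaves out 38 features, none of them a member; all members lie between the dashed lines, and those beyond 0.3 have few reads.

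Small differences remained. The interval lay above 0 for 10 members (13.0%), against 11.2% of all features, and below 0 for 2 members (2.60%), against 14.5% of all features. These shares rise with depth. Among the 58 members with at least 1000 reads, 15.5% had an interval above 0 and 3.45% below 0, where 19.6% and 22.2% of all features of that depth did. The 10 higher in r/r were NDUFA1, NDUFB4, UQCRH, COX6C, COX7B, COX7C, NDUFA4, ATP5B, ATP5O and the assembly factor NDUFAF4. ATP5F1, a stator subunit of complex V, was among those lower in r/r. These counts depended on the scaling. With median or upper quartile scaling SDHC joined those with an interval above 0. With TPM the interval stayed above 0 only for COX6C, COX7C, NDUFA4 and ATP5O, and it lay below 0 for 5 members, among them NDUFS7, COX4I1, COX7A2L and ATP5F1.

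Complex I, the NADH dehydrogenase, was represented by 32 subunits, whose summed level was 2365 RPKM in R/r and 2381 RPKM in r/r. Of these, 17 were lower and 15 higher in r/r, and the median log2 ratio was -0.02, or 0.00 with ratios centred on the median of all features. Pooled over the subunits, the reads gave a log2 ratio of 0.00 (95% interval -0.02 to 0.02). The largest amounts were those of the accessory subunits NDUFS5, NDUFB9 and NDUFA12. NDUFS5 stood at 185 RPKM in R/r and 180.5 RPKM in r/r. NDUFB9 stood at 158 RPKM in R/r and 164 RPKM in r/r, and NDUFA12 at 151 RPKM in R/r and 159 RPKM in r/r. All 3 intervals held 0.

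The core of complex I carries the flavin and the iron-sulfur clusters that lead electrons from NADH to ubiquinone. NDUFV1, which binds NADH and the flavin, had 55.3 RPKM in R/r and 54.3 RPKM in r/r. NDUFV2, which holds an iron-sulfur cluster, had 79.4 RPKM in R/r and 77.5 RPKM in r/r. NDUFS1, which holds several clusters, had 69.3 RPKM in R/r and 66.8 RPKM in r/r. For these 3 subunits the libraries lay within counting error of each other.

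NDUFS7 (ENSSSCG00000024144), which holds the last cluster before ubiquinone, had 78.9 RPKM in R/r and 73.3 RPKM in r/r. Its log2 ratio of -0.11 was the lowest in complex I, but its interval of -0.25 to 0.03 held 0. NDUFS3, in the same arm, had a higher value in r/r, with 54.2 RPKM in R/r and 57.1 RPKM in r/r.

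Accessory subunits of complex I surround the core and are needed for its assembly and stability. NDUFA1 (ENSSSCG00000023277), a small membrane subunit, had 113 RPKM in R/r and 125 RPKM in r/r. Its log2 ratio of 0.14 (95% interval 0.01 to 0.27) was the highest in the complex. NDUFB4, also of the membrane arm, had 108 RPKM in R/r and 118 RPKM in r/r, a log2 ratio of 0.13 whose interval began just above 0. NDUFS6, which lies near the electron input, had 43.4 RPKM in R/r and 47.3 RPKM in r/r, with an interval of -0.04 to 0.29.

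The lowest ratios of accessory subunits were those of NDUFV3 (ENSSSCG00000021991) and NDUFA2 (ENSSSCG00000014371). NDUFV3 had 14.0 RPKM in R/r and 13.0 RPKM in r/r, a log2 ratio of -0.11 (95% interval -0.36 to 0.14) from 294 and 246 reads. NDUFA2 had 22.0 RPKM in R/r and 20.9 RPKM in r/r, a log2 ratio of -0.07 (95% interval -0.39 to 0.24) from 188 and 161 reads. Both intervals were wide and held 0. NDUFA6 had the lowest level in the complex, at 1.51 RPKM in R/r and 1.56 RPKM in r/r. The highest subunit of complex I was thus 122-fold above the lowest in RPKM in the R/r library and 116-fold in the r/r library. This span rests on the feature named NDUFA6, and another feature, which the deposited table describes as NDUFA6, stood at 8.31 RPKM in R/r and 8.24 RPKM in r/r.

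Complex II, the succinate dehydrogenase, has only nuclear subunits. SDHA, the flavin subunit, had 91.1 RPKM in R/r and 89.9 RPKM in r/r. SDHB, the iron-sulfur subunit, had 94.2 RPKM in R/r and 98.5 RPKM in r/r. The membrane anchors followed the same pattern of small differences. SDHC had 72.4 RPKM in R/r and 77.0 RPKM in r/r, and its log2 ratio of 0.09 had an interval whose lower end was at 0.00. SDHD had 104 RPKM in R/r and 105 RPKM in r/r. Complex II had the narrowest span of levels, with its highest subunit 1.44-fold above its lowest in R/r and 1.37-fold in r/r. It also has the fewest subunits, 4 against 7 to 32 in the other complexes, and such a span tends to widen with more genes. The pooled log2 ratio of complex II was 0.03 (95% interval -0.01 to 0.07).

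Complex III, the cytochrome bc1 complex, was represented by 7 subunits with a summed level of 845 RPKM in R/r and 879 RPKM in r/r. UQCRH, the hinge protein that helps cytochrome c1 meet cytochrome c, was the most abundant, with 238 RPKM in R/r and 259 RPKM in r/r. Its log2 ratio of 0.12 (95% interval 0.03 to 0.21) was the only one of the complex with an interval above 0, and with TPM the interval held 0. UQCRFS1, the Rieske iron-sulfur protein, had 34.2 RPKM in R/r and 35.0 RPKM in r/r. The core proteins were UQCRC1, with 119 RPKM in R/r and 120.3 RPKM in r/r, and UQCRC2, with 40.8 RPKM in R/r and 39.8 RPKM in r/r. The small subunits UQCR10 (159 RPKM in R/r and 167 RPKM in r/r) and UQCRQ (133 RPKM in R/r and 130.0 RPKM in r/r) were close in level between the libraries. The pooled log2 ratio of complex III was 0.04 (95% interval 0.00 to 0.08), with a lower end just under 0.

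Cytochrome c, the mobile carrier between complexes III and IV, is encoded by CYCS in somatic tissues. CYCS had 142 RPKM in R/r and 138 RPKM in r/r, a log2 ratio of -0.04 (95% interval -0.11 to 0.04).

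Complex IV, the cytochrome c oxidase, had a pooled ratio further from 0 than any other complex. Its 12 subunits summed to 2551 RPKM in R/r and 2721 RPKM in r/r, and the pooled log2 ratio was 0.09 (95% interval 0.06 to 0.11). The median log2 ratio was 0.06, or 0.02 with TPM, and 7 of the 12 subunits were higher in r/r. NDUFA4 (ENSSSCG00000024313), named for complex I but a subunit of complex IV, was the most abundant, with 566 RPKM in R/r and 634 RPKM in r/r. Its log2 ratio was 0.16 (95% interval 0.10 to 0.22). COX7C (ENSSSCG00000014145), a small membrane subunit, had 252 RPKM in R/r and 287 RPKM in r/r from 5072 and 5191 reads. Its log2 ratio of 0.18 (95% interval 0.13 to 0.24), a 1.14-fold difference, was the highest among members at 10 RPKM or more.

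COX6C and COX7B, further small subunits around the catalytic core of complex IV, were higher by a similar amount. COX6C had 290.0 RPKM in R/r and 313 RPKM in r/r, a log2 ratio of 0.11 (95% interval 0.04 to 0.18). COX7B (ENSSSCG00000030970) had 284 RPKM in R/r and 310.1 RPKM in r/r, a log2 ratio of 0.13 (95% interval 0.04 to 0.22). Not every subunit shared this direction. COX4I1, the regulatory subunit that binds ATP, had 133 RPKM in R/r and 128 RPKM in r/r, with a log2 ratio of -0.06 (95% interval -0.13 to 0.01). COX5A had 127 RPKM in R/r and 126 RPKM in r/r, and COX8A had 259 RPKM in R/r and 253 RPKM in r/r.

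Several complex IV subunits exist as tissue isoforms, in which one gene is used mainly in heart and skeletal muscle and its partner in most other tissues. COX7A1, the muscle form, had 209 RPKM in R/r and 223 RPKM in r/r. COX7A2, its widely used partner, had 249 RPKM in R/r and 260.3 RPKM in r/r. The COX7A1 to COX7A2 ratio of RPKM was 0.842 in R/r and 0.856 in r/r, so the muscle form was nearly as abundant as its partner in both libraries. COX6A2, also a muscle form, was low, with 5.47 RPKM in R/r and 5.21 RPKM in r/r. The testis form COX8C was listed at 0 as given above.

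Striated muscle markers were read beside these values. Of 18 markers 10 were found, with a summed level of 59.0 RPKM in R/r and 83.5 RPKM in r/r, ACTA1 listed at 0 RPKM in R/r and at 0.0470 RPKM in r/r, and CKM at 5.08 RPKM in R/r and 3.82 RPKM in r/r. Of the 5 that passed the minimum, the myosin MYH1 was lower in r/r (2.98 RPKM in R/r and 0.445 RPKM in r/r) and MYH6 was higher (19.2 RPKM in R/r and 40.1 RPKM in r/r). The part of muscle cells in the level of COX7A1 was not tested.

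NDUFA4L2 had the largest difference of all members, with 1.41 RPKM in R/r and 0.867 RPKM in r/r from 27 and 15 reads. Its log2 ratio of -0.70 had an interval of -1.71 to 0.26, so no difference was detectable at this depth. The name of this feature (ENSSSCG00000027621) comes only from the Ensembl name table, and the deposited table describes a different feature as NDUFA4L2, at 0.263 RPKM in R/r and 0.292 RPKM in r/r from 4 reads each. The identity of the gene is therefore uncertain.

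Complex V, the ATP synthase, took the most reads, with 0.296% of all mapped reads in R/r and 0.301% in r/r. Its 10 subunits summed to 2430 RPKM in R/r and 2482 RPKM in r/r. ATP5B, the catalytic beta subunit, was the most abundant member in R/r, with 602 RPKM there and 618 RPKM in r/r. At 15865 and 14677 reads its log2 ratio of 0.04 (95% interval 0.01 to 0.07) left out 0, and with TPM the ratio was 0.00. ATP5A1, the alpha subunit, had 385 RPKM in R/r and 384 RPKM in r/r, a log2 ratio of 0.00 (95% interval -0.04 to 0.04). The delta and epsilon subunits of the central stalk were also level, with ATP5D at 249 RPKM in R/r and 255 RPKM in r/r and ATP5E at 249.9 RPKM in R/r and 256 RPKM in r/r.

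The stator of complex V, which holds the catalytic head still, gave differences in both directions. ATP5O, the subunit that joins the stator to the head, had 280.0 RPKM in R/r and 302 RPKM in r/r, a log2 ratio of 0.11 (95% interval 0.04 to 0.18). ATP5F1 (ENSSSCG00000006789), the stator subunit b, had 189 RPKM in R/r and 177 RPKM in r/r, a log2 ratio of -0.09 (95% interval -0.16 to -0.02). ATP5J (ENSSSCG00000030602), the coupling factor, had 23.5 RPKM in R/r and 25.8 RPKM in r/r, with an interval of -0.09 to 0.36. The pooled log2 ratio over complex V was 0.02 (95% interval 0.01 to 0.04), which is below the shift of 0.04 that TPM makes to every ratio.

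The c ring that the proton flow turns is made from several genes for the same mature protein. ATP5G3 had 189 RPKM in both libraries. ATP5G1 had 139 RPKM in R/r and 143 RPKM in r/r, so that the ATP5G3 to ATP5G1 ratio of RPKM was 1.36 in R/r and 1.32 in r/r. ATP5I, subunit e of the membrane part, had 124 RPKM in R/r and 130.4 RPKM in r/r, with an interval that held 0.

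The rule also took in 11 assembly and accessory factors. Their median level in R/r was 8.68 RPKM, against 99.3 RPKM for the subunits and CYCS, though some factors stood above many subunits. COX7A2L, which helps join complexes III and IV into supercomplexes, was the highest, at 110.1 RPKM in R/r and 105 RPKM in r/r. NDUFAF3 had 65.3 RPKM in R/r and 68.6 RPKM in r/r, and NDUFAF1 had 30.5 RPKM in both libraries. SDHAF1 and SDHAF2, which serve complex II, had 10.17 and 26.1 RPKM in R/r and 10.1 and 26.2 RPKM in r/r. As deposited, these factors did not differ beyond counting error, whereas with TPM the interval of COX7A2L lay below 0.

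The factors with few reads spread more widely. NDUFAF4 (ENSSSCG00000004342), an early complex I assembly factor, had 3.43 RPKM in R/r and 5.05 RPKM in r/r. Its log2 ratio of 0.56 was the highest of all members, and its interval of 0.02 to 1.11 began just above 0 at 52 and 69 reads. With TPM the interval held 0. NDUFAF2 had 4.06 RPKM in R/r and 5.59 RPKM in r/r from 25 and 31 reads, and NDUFAF6 had 1.04 RPKM in R/r and 1.34 RPKM in r/r from 13 and 15 reads, both with intervals that held 0. Pooled over the 11 factors the log2 ratio was 0.00 (95% interval -0.06 to 0.06).

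**Figure D3:**
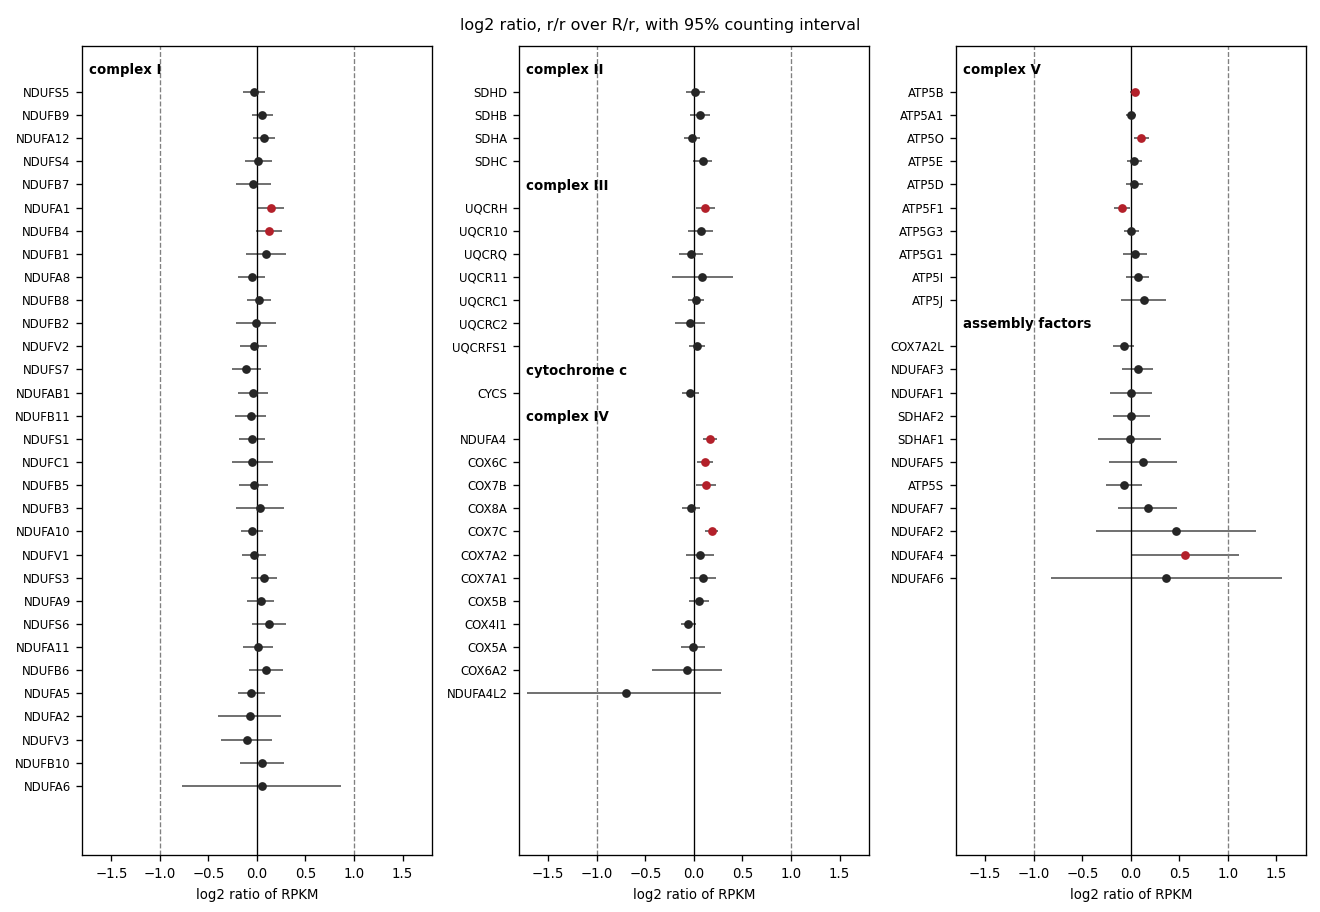
Log2 ratio of RPKM, r/r over R/r, for 76 members, with 95% counting intervals as horizontal lines, grouped by complex in the order of level in R/r; dashed lines mark 2-fold and red points have an interval that leaves out 0. The 11 red points lie at small ratios except for NDUFAF4 at 0.56, and the widest intervals belong to NDUFA4L2, NDUFAF6, NDUFAF2 and NDUFA6.

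Over all complexes the members took 0.831% of mapped reads in R/r and 0.849% in r/r, a pooled log2 ratio of 0.03 (95% interval 0.02 to 0.04). This lies below the shift of 0.04 that a change of scaling from RPKM to TPM makes to every ratio. With TPM the medians of complexes I to V were -0.052, 0.004, -0.002, 0.024 and 0.002. The sign of the median thus depended on the scaling for complexes I and III. For complexes II, IV and V it stayed above 0 with each scaling, but for II and V only just so with TPM. The pooled log2 ratios of complexes II and V, 0.03 and 0.02, also lay below the TPM shift of 0.04. The 12 subunits with an exon model under 500 bases had a median log2 ratio of 0.07, and 9 of them were higher in r/r. The median of all features under 500 bases at 10 RPKM or more was 0.00. The part of gene length in the ratios of small subunits was not tested.

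The 13 subunits encoded in mitochondrial DNA complete complexes I, III, IV and V. Their levels summed to 50846 RPKM in R/r and 53402 RPKM in r/r, and 10 of the 13 were higher in r/r, with a median log2 ratio of 0.09. Among the 9 with reads found, the interval lay above 0 for 6 and below 0 for 2. Of all features at 1000 reads or more, 19.6% and 22.2% did. The depths do not match, with a median of 37752 reads for these 9 and 2244 for those features. The lowest ratio was that of MT-ND6, at 2021 RPKM in R/r and 1882 RPKM in r/r, and the highest that of MT-ND3, at 1398 RPKM in R/r and 1603 RPKM in r/r. The summed RPKM of mitochondrial subunits over that of the nuclear subunits and CYCS was 5.85 in R/r and 5.95 in r/r, so that both genomes kept nearly the same proportion.

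Factors that build the chain outside the rule were close in level as well. Of 31 listed factors 21 passed the minimum, with a median log2 ratio of -0.03, and 0 were 2-fold apart. The interval lay below 0 for 2 (9.52%) and above 0 for 2 (9.52%), against 14.5% and 11.2% of all features. Of the 2 above 0, 1 was ATPIF1, which inhibits complex V and is not an assembly factor. COX16, a complex IV assembly factor, was the lowest, at 7.45 RPKM in R/r and 4.87 RPKM in r/r, with a log2 ratio of -0.61 (95% interval -1.13 to -0.11). COA5 was the highest, at 43.5 RPKM in R/r and 53.1 RPKM in r/r, with an interval that held 0. The copper chaperone COX17, which supplies complex IV, had 222 RPKM in R/r and 240.2 RPKM in r/r.

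Transcription factors and coactivators that drive the respiratory genes were measured for 11 of 14 listed. None was 2-fold apart, and the median log2 ratio was -0.13. Of the 11, 8 were lower in r/r, where 8711 of all 16331 features tested were. The interval lay below 0 for 1 (9.09%) and above 0 for 1 (9.09%), against 14.5% and 11.2% of all features. PPARGC1B, a coactivator, was the lowest, with a log2 ratio of -0.43 (95% interval -0.95 to 0.08). ESRRB, a nuclear receptor of marginal cells, had 69.6 RPKM in R/r and 56.1 RPKM in r/r, a log2 ratio of -0.31 (95% interval -0.41 to -0.21). ESRRA, its relative and a regulator of respiratory genes, was the highest, with a log2 ratio of 0.13 (95% interval 0.01 to 0.25). NRF1, which binds the promoters of many respiratory genes, had 7.66 RPKM in R/r and 7.54 RPKM in r/r, and TFAM, which packages and transcribes mitochondrial DNA, had 47.3 RPKM in R/r and 43.7 RPKM in r/r.

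The pathways that feed the chain were compared in the same way. All 13 citric acid cycle genes passed the minimum, with a median log2 ratio of -0.01, which centring on the median of all features turned above 0, and 0 at 2-fold. The interval lay below 0 for 4 of them (30.8%) and above 0 for 0, against 14.5% and 11.2% of all features, or 22.2% and 19.6% at 1000 reads or more. IDH3B was the lowest, at 6.41 RPKM in R/r and 4.83 RPKM in r/r, and DLD the highest, at 79.0 RPKM in R/r and 83.8 RPKM in r/r. Of 17 glycolysis genes 14 passed, with a median of -0.05 and 0 at 2-fold. The interval lay below 0 for 8 (61.5%) and above 0 for 1 (7.69%) of the 13 with reads found, against the same shares of all features. The glycolysis genes had a median of 4999 reads, and all features at 1000 reads or more had 2244, so the depths do not match. HK2 was the lowest, at 2.84 RPKM in R/r and 2.03 RPKM in r/r, and ALDOC the highest, at 40.8 RPKM in R/r and 67.9 RPKM in r/r.

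Ribosomal proteins gave a comparison with other large complexes. The 62 mitochondrial ribosomal proteins that passed had a median log2 ratio of 0.01, which TPM turned below 0, and a range from -0.44 (MRPL21) to 0.33 (MRPL15), with 6 intervals below 0 (9.68%) and 9 above (14.5%), against 14.5% and 11.2% of all features. The 59 cytosolic ribosomal proteins that passed had a median of 0.11 and a range from -0.10 (RPS7) to 0.48 (RPL14), with 43 intervals above 0 (75.4%) and 2 below (3.51%) among 57 with reads found. Their median of 9638 reads is well above that of the typical feature. At 1000 reads or more 19.6% of all features were above 0 and 22.2% below. Those features had a median of 2244 reads, so their depth does not match that of the ribosomal proteins. By median, the cytosolic ribosomal proteins were further above 0 than complex IV, whose median was 0.06. Their part in the ratios of the small complex IV subunits was not tested.

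**Figure D4:**
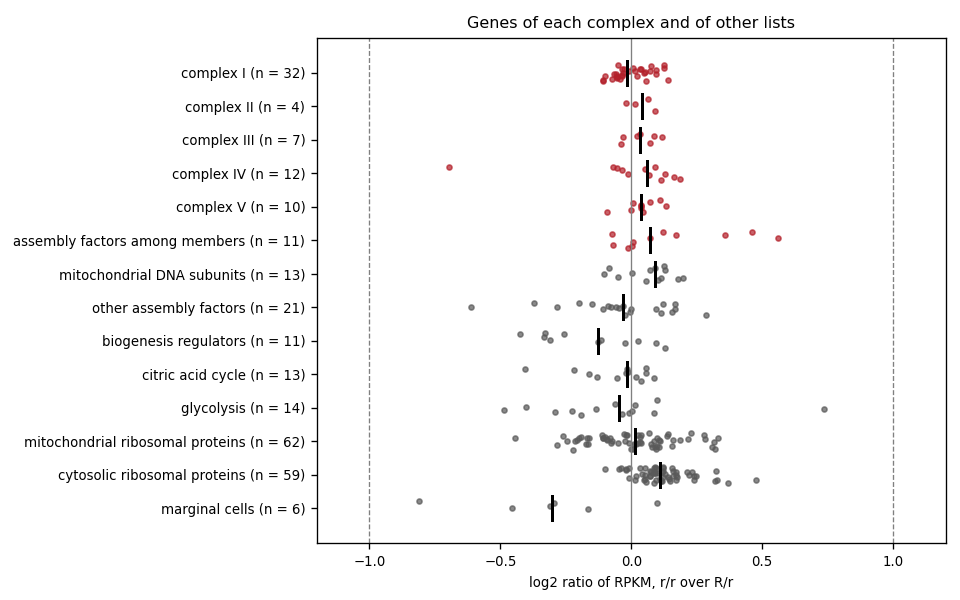
Log2 ratio of RPKM, r/r over R/r, for each gene that passed the minimum (points, spread vertically for view), by complex (red) and by list (grey), with the median as a black bar, the number of genes beside each name and dashed lines at 2-fold. The complexes center near 0 with medians from -0.02 to 0.06, the cytosolic ribosomal proteins lie mostly to the right and 5 of 6 marginal cell markers to the left.

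The lists of cell type markers had medians further from 0 than the respiratory genes. Of the 6 marginal cell markers, 5 had an interval below 0 and 1 above, where 14.5% and 11.2% of all features did, with a median log2 ratio of -0.30. ATP1B2 was the lowest, at 915 RPKM in R/r and 522 RPKM in r/r, and SLC12A2 the highest, at 312 RPKM in R/r and 334 RPKM in r/r. The 6 pericyte markers that passed had a median of -0.15, with 1 interval below 0 (16.7%), near the 14.5% of all features. Over all 7 they summed to 182 RPKM in R/r and 173 RPKM in r/r. Bone markers were lower in r/r in 7 of 8 cases, with 3 at least 2-fold lower (COL1A1, DMP1 and MEPE). Of all 16331 features tested, 8711 were lower and 360 at least 2-fold lower. The bone markers had a summed level of 1008 RPKM in R/r and 656 RPKM in r/r. Red blood cell markers summed to 1707 RPKM in R/r and 1438 RPKM in r/r over the 5 found. All 4 that passed were lower in r/r, with 2 intervals below 0 (50%), against 14.5% of all features. Of 6 fat cell markers only PLIN1 was found, at 0.120 RPKM in R/r and 0.0444 RPKM in r/r. The part of these cell types in the levels of the respiratory genes was not tested.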

How the data were processed

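RNA was extracted from dissected lateral wall of the cochlea, which holds the SV, and sequenced in 1 library per genotype. The authors aligned the reads to Sscrofa10.2 with TopHat2 (version 2.0.7, per the submitters' processing notes) and deposited RPKM values per feature. The counting program and the annotation are not given in the sources used here, nor is whether a read pair counted once; if each mate counted, the intervals are too narrow. Coordinates and sequences are not reported here.

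RPKM values were used as deposited, without a pseudocount, with a minimum of 1 RPKM in at least 1 library. Of features with a common symbol, that of highest mean RPKM was taken. Reads were worked out from RPKM: the commonest ratio between low values, 1.11, was taken as that of equal reads. Totals were chosen to make lengths whole, which held for 74.3% of 3000 features to within a small fraction of a base. Reads were found for 19311 of 19347 features above 0 in both libraries. They are the smallest numbers that fit both values, and if the true reads are a multiple of them the intervals are too wide. One read on a model of 1 kb is worth 0.0632 RPKM in R/r and 0.0701 RPKM in r/r. The steps were tested on simulated data.

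The members and lists were chosen with earlier results of these data known. Named were the 5 lowest and 5 highest ratios among members at 10 RPKM or more in at least 1 library, any 2-fold member, the 3 highest levels per complex, tissue isoforms, catalytic or core subunits and, in other lists, the lowest and highest ratio and genes 2-fold apart. NDUFA4 and NDUFA4L2 were counted in complex IV. Values of some genes are left out of the text and of the plots by gene name. Further members are named as examples, chosen after their values were seen. CYC1, NDUFS8, ATP5C1, COX4I2, COX6B1, COX6B2, COX7B2, ATP5G2 and some other subunits had no feature under these symbols and were not analysed here. A planned count of promoter motifs was not run. The table has 2 columns without headings, with values for 22 genes, which were not used. Computations ran in Python 3.11.15 with scipy 1.17.1, pandas 2.3.3 and numpy 2.4.6, and plots were drawn with matplotlib 3.10.9.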

Additional observations from a re-analysis of the deposited data

How the results depend on the processing

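The median log2 ratio of the members ran from -0.01 with TPM to 0.04 with centring on the median of all features, over pseudocounts of 0.1 and 1 RPKM, no minimum and minimums of 5 and 10 RPKM, 3 scalings, every feature of a symbol and Ensembl features alone. Scaling shifted every ratio by 0.02 (median), 0.01 (upper quartile) or -0.04 (TPM). The count of members at least 2-fold apart was 0 in each of these except 1 with no minimum (COX8H, from 1 and 2 reads), and it was 1 at 1.5-fold and 4 at a difference of 25 percent. The count with an interval below 0 went from 2 to 1 with median scaling, 1 with 99% intervals and 5 with TPM. The count above 0 went from 10 to 11 with median or upper quartile scaling, 5 with 99% intervals and 4 with TPM. TPM and upper quartile scaling of the intervals, and the features named by description, were added after seeing the data. Of 681 single values under alternatives, 680 stayed inside their interval, and ATP5B left it with TPM, at 0.00. No paired analysis was possible because each genotype has a single library, which also left no replicate to leave out. Depth limits the members with few reads, such as NDUFA4L2, NDUFAF2 and NDUFAF6.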

Other observations

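A further 10 features carried no symbol but a description that names a subunit of the chain. They were noticed after the data were seen and 5 of them passed the minimum. COX6A1, the widely used partner of COX6A2, stood at 269 RPKM in R/r and 278 RPKM in r/r, with a log2 ratio of 0.05 (95% interval -0.02 to 0.11). Its RPKM was 49.2 times that of COX6A2 in R/r and 53.3 times in r/r, so that the muscle form was minor for this subunit in both libraries, unlike COX7A1 beside COX7A2. ATP5L, a subunit of the membrane part of complex V, had 49.3 RPKM in R/r and 54.3 RPKM in r/r, with a log2 ratio of 0.14 (95% interval 0.05 to 0.22). ATP5J2, a neighbouring small subunit, had 70.6 RPKM in R/r and 78.0 RPKM in r/r, with an interval of -0.06 to 0.34.

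A feature described as NDUFA6 had 8.31 RPKM in R/r and 8.24 RPKM in r/r, above the 1.51 and 1.56 RPKM of the feature named NDUFA6, so the level of this subunit rests on which feature is taken. A feature described as NDUFC2 had 3.77 RPKM in R/r and 4.18 RPKM in r/r from 13 reads each. None of these 5 was 25 percent apart.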
